A study of Mus musculus with 6 samples.

Results

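The genes described are 41 genes of the DNA damage response and DNA repair, taken by name and looked up in 6 RNA-seq libraries of mouse embryonic stem cells. All 41 of 41 were found among the 18857 genes of the joined files. By role they are 9 checkpoint genes, 18 genes of homologous recombination and crosslink repair, 5 of end joining, 2 of mismatch repair and 7 of excision and single-strand break repair. All libraries came from KH2 cells of a C57BL/6 x 129 background, a line built for expression of a transgene under doxycycline (Dox), and each group was 1 library. The wild-type groups were untreated KH2 cells and KH2 cells given PD0325901, an inhibitor of the kinase Mek that activates the Erk kinases, for 48 hours. The engineered groups were labelled iErk1; Erk KO. One was kept in Dox, another had Dox withdrawn for 48 hours, and the last pair had it withdrawn for 96 hours, either alone or with PD0325901 over the final 48 hours. The labels do not give the dose of either agent, the number of clones, or whether feeder cells were present. The question in the design text was what Mek inhibition does in wild-type and in Erk KO cells, and what Erk loss does.

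Cells meet DNA breaks and stalled replication forks with sensor kinases. ATM answers double-strand breaks, and ATR with its partners TOPBP1 and Claspin answers exposed single-stranded DNA, acting through the kinases CHK2 and CHK1. A double-strand break is joined directly by the Ku, DNA-PK and ligase IV machinery, or resected by the MRE11, RAD50 and NBS1 complex and copied from the sister chromatid with BRCA1, PALB2 and BRCA2. The Fanconi proteins open DNA crosslinks, and the mismatch, nucleotide excision and base excision pathways correct single-strand lesions. Embryonic stem cells spend much of their short cycle in S phase, express these genes at high levels and use recombination heavily. Many of the genes are known targets of the E2F factors, which drive transcription at the start of S phase.

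Promoter windows from 250 bases before to 50 bases after the start were given by RefSeq (GRCm38.p6) for 33 of the 41 genes. Exact matches of 4 E2F-type motifs of 8 letters (TTTGGCGC, TTTCCCGC, TTTCGCGC and TTTGCCGC, on both strands) were present for 10 of the 33 genes, or 30.3%. The same motifs were present for 3.92% of the 14644 genes in the files that have a window. A gene with more than 1 window counts as holding a motif where any of its windows does. TTTCCCGC was present for 7 of the 33 genes, TTTCGCGC for 4, and the other 2 motifs for 0. The pentamer CCAAT, also on both strands, was present for 17 of the 33 (51.5%), against 42.2% of the genes in the files. The genes with an E2F-type match were Mdc1, Topbp1, Clspn, Chek2, Brca2, Bard1, Rad51c, Xrcc6, Msh6 and Lig1. The 250 bases before the start are printed for 4 genes, Brca2, Topbp1, Xrcc5 and Xrcc6, with matches in capitals. A match on the opposite strand reads GCGGGAAA, GCGCGAAA or ATTGG as printed. Brca2 (chr5:150522371-150522620, plus strand) and Topbp1 (chr9:103305077-103305326, plus strand) were both called higher in the Erk KO cells and hold an E2F-type match, 168 and 129 bases before the start. Xrcc5 (chr1:72307171-72307420, plus strand) had the largest change and holds no E2F-type match in its window, only a CCAAT match 169 bases before the start. Its partner Xrcc6 (chr15:82016119-82016368, plus strand) was not called and holds an E2F-type match 46 bases before the start.
Brca2: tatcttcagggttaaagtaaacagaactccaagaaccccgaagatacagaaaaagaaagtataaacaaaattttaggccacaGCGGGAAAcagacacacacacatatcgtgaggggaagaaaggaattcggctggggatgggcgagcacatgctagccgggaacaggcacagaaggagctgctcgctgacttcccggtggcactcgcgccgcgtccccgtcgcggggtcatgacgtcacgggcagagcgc
Topbp1: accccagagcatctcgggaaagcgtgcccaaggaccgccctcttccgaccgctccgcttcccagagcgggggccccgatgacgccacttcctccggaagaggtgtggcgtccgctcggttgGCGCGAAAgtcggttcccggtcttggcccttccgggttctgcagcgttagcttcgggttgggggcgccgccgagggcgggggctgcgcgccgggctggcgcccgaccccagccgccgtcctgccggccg
Xrcc5: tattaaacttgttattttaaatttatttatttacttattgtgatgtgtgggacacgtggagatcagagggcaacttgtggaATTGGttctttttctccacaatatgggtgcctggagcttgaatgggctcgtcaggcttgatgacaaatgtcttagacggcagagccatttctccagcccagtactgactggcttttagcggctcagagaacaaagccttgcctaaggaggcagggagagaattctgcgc
Xrcc6: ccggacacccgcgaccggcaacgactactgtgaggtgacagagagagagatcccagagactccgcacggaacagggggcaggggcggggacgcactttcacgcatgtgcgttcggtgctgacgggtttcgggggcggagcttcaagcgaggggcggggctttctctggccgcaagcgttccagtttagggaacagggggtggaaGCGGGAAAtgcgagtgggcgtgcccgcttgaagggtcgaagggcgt
Among the genes called higher in the Erk KO cells in the test given further on, 8 of 23 with a window held an E2F-type match, against 2 of the 10 others. A match is a description of these letters and does not show that a factor binds there.

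The libraries held between 9.05 and 9.95 times 1e6 reads assigned to genes, and between 16042 and 17403 genes had reads. Mapk3, which encodes Erk1, was at 56.4 and 52.8 RPKM (reads per kilobase of gene length per 1e6 library reads) in KH2 cells without and with PD0325901. It was at 14.8 RPKM in the engineered line with Dox and at 6.75 to 9.18 RPKM in the 3 libraries without Dox. All 12 markers of embryonic stem cells that were checked had reads in every library, and their summed level was 3093 to 4461 RPKM. All 26 fibroblast markers checked also had reads in every library. Their summed level was 733 RPKM in KH2, 3613 RPKM in KH2 with PD0325901, 237 to 302 RPKM in the untreated engineered libraries and 1230 RPKM in the treated one. In such bulk RNA, fewer cells of a type and less RNA per cell cannot be told apart.

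All 41 genes were expressed in every library. Their reads ran from 52 to 10890 per library, with at least 100 reads in every library for 38 genes, and their levels from 4.36 to 284.5 RPKM. The median level in untreated KH2 cells was 16.0 RPKM, against 5.34 RPKM over all genes with reads. In untreated KH2 cells Parp1, which marks single-strand breaks with poly(ADP-ribose), was the most abundant at 233 RPKM. H2afx, the histone variant H2AX that ATM phosphorylates around breaks, followed at 165 RPKM, then the mismatch recognition subunit Msh6 at 155 RPKM. The ligase of replication and excision repair, Lig1, was at 84.0 RPKM, and the Ku subunits Xrcc5 (Ku80) and Xrcc6 (Ku70) were at 72.2 and 57.5 RPKM. At the low end were the DNA-PK catalytic subunit Prkdc at 5.53 RPKM, the ligase IV cofactor Xrcc4 at 5.65 RPKM, the excision repair scaffold Xpa at 5.89 RPKM and the helicase Wrn at 6.12 RPKM. The median ratio of a gene's highest to its lowest RPKM over the 6 libraries was 1.57, against 1.81 over the 9255 genes with at least 52 reads in each library. Of the 41 genes 5 (12.2%) had a ratio of at least 2, against 39.4% of those 9255 genes. These ratios use RPKM scaled to library totals and were not repeated under other scalings, so they do not show that the 41 genes are steadier than others. The TMM factors were 1.17 and 1.18 for the KH2 libraries and 0.88 to 0.96 for the engineered ones. Dividing by them widens the ratio of genes that are higher in the engineered line. On that scale the median log2 ratio of the line with Dox to untreated KH2 was 0.10 for the 41 genes. It was −0.37 over all genes, and both medians move with the scaling, as given further on. The summed RPKM of the 41 genes, in the order KH2, KH2 with PD0325901, with Dox, 48 hours, 96 hours and 96 hours with PD0325901, was 1398, 1285, 1610, 1630, 1696 and 1609. The sum was lowest in both KH2 libraries and highest after 96 hours without Dox. It is weighted toward the most abundant genes. The median RPKM of the 41 genes, in the same order, was 16.0, 14.7, 15.9, 15.5, 16.7 and 15.8.

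**Figure D1:**
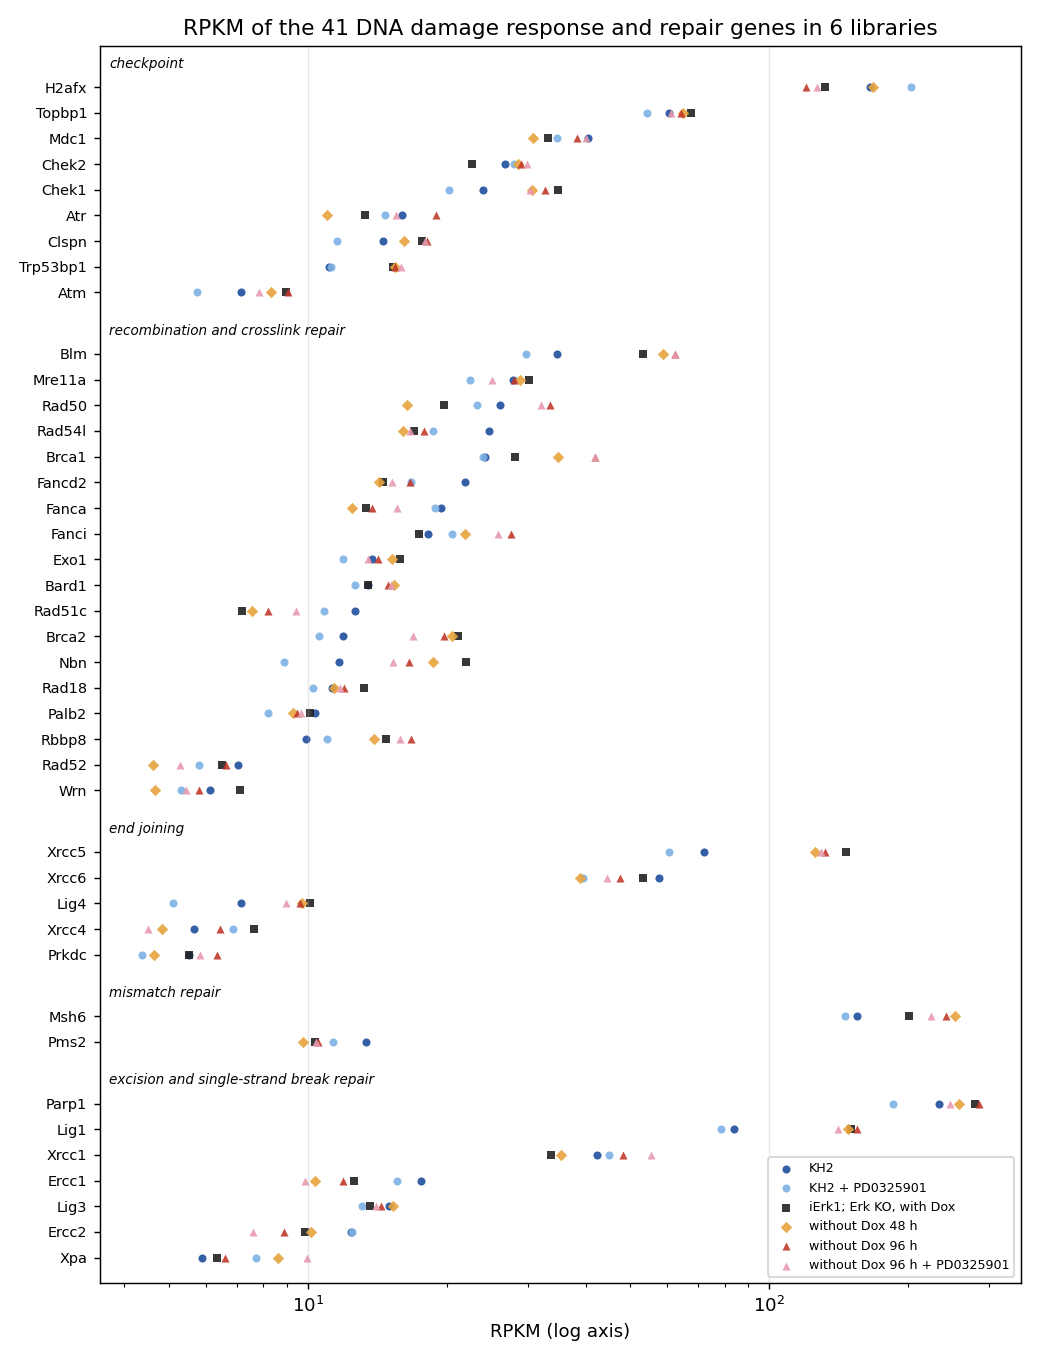
RPKM on a log axis for each of the 41 genes, with 1 point per library (blue circles KH2, black squares engineered line with Dox, orange diamonds and red triangles without Dox, lighter symbols with PD0325901). Genes are grouped by role and ordered within a role by level in untreated KH2 cells. Levels ran from 4.36 to 284.5 RPKM, and for Xrcc5, Lig1, Msh6 and Blm all 4 engineered libraries lie to the right of both KH2 libraries.

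The first comparison set KH2 cells with PD0325901 against untreated KH2 cells. Levels of the repair genes were slightly lower in the treated library for most genes and differed by less than 1.5-fold for all of them. A pair of libraries was described by a ratio of at least 1.5-fold in RPKM plus 0.5, with the higher library at 1 RPKM or more, 20 or more reads in the pair, and a 95% counting interval of the fold that excluded 1. By this rule 0 of 41 genes were higher and 0 lower, against 9.4% higher and 5.11% lower among 12787 genes tested. A 2-fold limit was also passed by 0 of the 41, against 5.08% of all genes in either direction. The median log2 ratio of the 41 genes was −0.19, with 32 below 0, against a median of −0.02 over all genes. Each group being 1 library, no difference here has a replicate check. The intervals cover the counting error of reads only and not differences between libraries of the same group. Reads carried no molecular identifiers, so a molecule may be counted more than once and the intervals may be too narrow.

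By role, the median log2 ratio was −0.16 for the checkpoint genes, −0.20 for recombination and crosslink repair, −0.31 for end joining, −0.16 for mismatch repair and −0.10 for excision and single-strand break repair. The lowest ratio was that of Xrcc6, at 57.5 RPKM untreated and 39.5 RPKM treated, 1.46-fold lower (95% interval 1.33 to 1.60). Lig4, the ligase of end joining, went from 7.14 to 5.09 RPKM, 1.4-fold lower (1.16 to 1.70). The recombination translocase Rad54l went from 24.7 to 18.7 RPKM, 1.32-fold lower (1.18 to 1.48). Fancd2, which is ubiquitinated at crosslinks as a pair with FANCI, went from 21.9 to 16.7 RPKM, 1.31-fold lower (1.19 to 1.44). Fanci went the other way, from 18.2 to 20.5 RPKM, 1.13-fold higher (1.02 to 1.24). H2afx was the other gene with an interval above 1, with 165 RPKM without the inhibitor and 203 RPKM with it, a fold of 1.23 (1.16 to 1.30). Xpa had the highest log2 ratio, 0.37, from 52 reads untreated and 68 reads treated, and its interval of the fold (0.902 to 1.92) held 1.

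The second comparison set the Erk KO cells without Dox for 96 hours with PD0325901 against those without it. Here too 0 of 41 genes were higher and 0 lower by 1.5-fold, and 0 passed 2-fold. Among 11920 genes tested, 3.7% were higher and 1.81% lower by 1.5-fold, and 1.93% passed 2-fold in either direction. The median log2 ratio of the 41 genes was −0.08, with 29 below 0, against 0.01 over all genes. Xrcc4 had the lowest ratio, from 100 reads at 6.45 RPKM to 69 reads at 4.51 RPKM, 1.43-fold lower (1.04 to 1.98). Atr went from 18.9 to 15.5 RPKM, 1.22-fold lower (1.13 to 1.32), and Brca2 from 19.7 to 16.9 RPKM, 1.17-fold lower (1.1 to 1.24). Xpa had the highest ratio, from 64 to 95 reads at 6.61 and 9.94 RPKM, 1.5-fold higher (1.08 to 2.10). On the scale of RPKM plus 0.5 its log2 ratio was 0.55, just short of the limit.

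**Figure D2:**
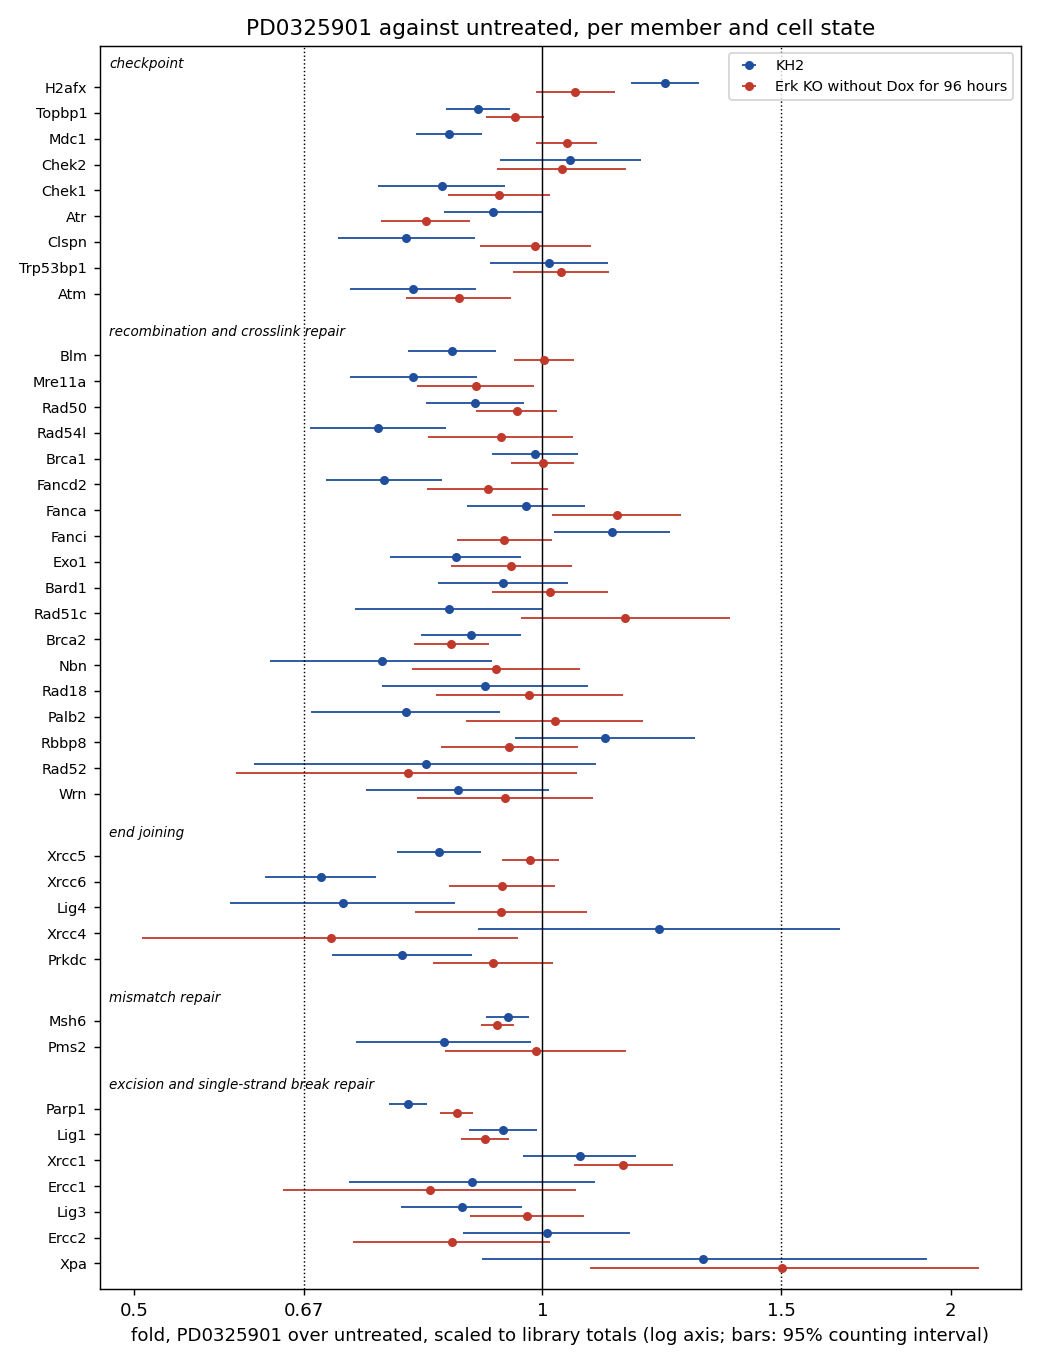
Fold of PD0325901 over untreated reads, scaled to library totals (log axis), for each of the 41 genes in KH2 cells (blue) and in Erk KO cells without Dox for 96 hours (red), with bars for the 95% counting interval and dotted lines at 1.5-fold in either direction. The median log2 ratio is −0.19 for the blue points and −0.08 for the red ones, and no point passes the 1.5-fold rule.

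The treated and untreated pairs of both cell states were then tested together with edgeR's quasi-likelihood test, with cell state as a block and Benjamini-Hochberg adjustment over 14782 genes. Of the 41 genes 0 were called higher and 0 lower at an adjusted p of 0.05, against 6.05% higher and 2.92% lower of all genes. DESeq2 also called 0 of the 41. At an unadjusted p under 0.05 there were 8 of the 41, of which 7 were lower (Parp1, Xrcc6, Fancd2, Atm, Rad54l, Mre11a and Prkdc) and 1 higher (Xpa), against 9.8% lower and 12.7% higher of all genes. That count was 1 by DESeq2, 0 in a fit of all 6 libraries and 0 without the block. Parp1 came nearest to the threshold, at a log2 fold change of −0.27 with an SE of 0.085 and an adjusted p of 0.0635 by edgeR. Parp1 was at 233 RPKM in KH2 and 186 RPKM in KH2 with PD0325901, and at 285 and 246 RPKM in the Erk KO cells without and with it. Both treated libraries were below the untreated library of their own state. Xrcc6 stood at −0.32 (SE 0.11) with an adjusted p of 0.0933 by edgeR, and was called under other scalings, at an adjusted p of 0.0302 with DESeq2 size factors and 0.0308 with library totals in edgeR. The median log2 fold change of the 41 genes was −0.12, against −0.01 over all genes tested. The difference of the PD0325901 effect between Erk KO and KH2 cells, tested by edgeR over all 6 libraries, called 0 of the 41 genes and 0 of 15103 genes (0% higher and 0% lower). At an unadjusted p under 0.05 it held 0 of the 41 and 129 of all genes (0.854%), and DESeq2 called 0 of the 41. This fit took the 48 and 96 hour libraries without Dox together as the untreated Erk KO cells, so it mixes time with the inhibitor and its spread is the gap between those times. For Rad50 it gave a difference of 0.50 in log2, while the log2 ratios of the matched pairs were −0.16 in KH2 and −0.06 in Erk KO cells.

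Other genes of these pathways are given beside them. Of 86 other repair genes, 3 were lower in KH2 cells by 1.5-fold and 0 higher, with a median log2 ratio of −0.14. The 3 were Fancb (5.09 to 2.78 RPKM) and Fancl (12.5 to 7.99 RPKM) of the Fanconi core complex, and Hus1 (18.9 to 12.3 RPKM) of the checkpoint clamp. Of 30 DNA replication genes 0 passed in either direction, with a median of −0.18 and 28 of 30 below 0. Of 25 genes of G2 and mitosis 0 passed, with a median of −0.17. Of 25 targets of p53 7 were higher and 2 lower, and the cell cycle inhibitor Cdkn1a was at 72.3 RPKM untreated and 203 RPKM treated in KH2 cells and at 51.6 and 88.6 RPKM in Erk KO cells. In the common test 6 of the 25 p53 targets rose and 2 fell, 1 of the 86 other repair genes fell, 1 of the 30 replication genes fell and 0 of the 25 G2 and mitosis genes were called (edgeR, adjusted p under 0.05). Of the 26 fibroblast markers 21 rose and 0 fell in that test, with the summed levels given above, and their part in the small differences of the repair genes was not tested.

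Withdrawal of Dox from the engineered line was compared at 48 hours, as the design text names it, and at 96 hours. Both comparisons share the library with Dox. At 48 hours 0 of 41 genes were higher and 1 was lower by 1.5-fold, against 7.33% higher and 7.44% lower of 11386 genes, and 0 passed 2-fold, against 4.89%. The lower gene was Xrcc4, from 112 reads at 7.64 RPKM to 73 reads at 4.83 RPKM, 1.58-fold lower (1.17 to 2.15). Wrn was just short of the limit, from 7.13 to 4.67 RPKM, 1.53-fold lower (1.31 to 1.78) with a log2 ratio of −0.56 on RPKM plus 0.5. Both genes are at low levels, where the added 0.5 matters: with 0.1 in its place 2 genes passed, and with 1 in its place 0. Ku70 (Xrcc6) went from 53.2 to 39.0 RPKM, 1.36-fold lower (1.24 to 1.5). The genes with the highest log2 ratios were Xpa (0.41, from 58 and 81 reads), H2afx (0.35), Msh6 (0.33), Fanci (0.32), the ATM target kinase Chek2 (0.32) and Brca1 (0.30). The median log2 ratio of the 41 genes was −0.07, against −0.03 over all genes.

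At 96 hours 2 of 41 genes were higher and 0 lower by 1.5-fold, against 16.6% higher and 6.68% lower of 11804 genes, and 0 passed 2-fold, against 9.68%. The 2 were Rad50, the coiled-coil subunit of the break-resection complex, from 19.7 to 33.4 RPKM, 1.69-fold higher (1.56 to 1.84), and Fanci, from 17.4 to 27.5 RPKM, 1.58-fold higher (1.44 to 1.73). Fanci did not pass under TMM or DESeq2 scaling. Brca1 was just short of the limit, from 28.1 RPKM with Dox to 34.8 at 48 hours and 41.8 at 96 hours, 1.49-fold higher (1.40 to 1.58) at 96 hours. Nbn, which encodes the NBS1 subunit, had the lowest ratio, from 22.0 to 16.5 RPKM, 1.33-fold lower (1.17 to 1.52). The median log2 ratio of the 41 genes was 0.03, against 0.05 over all genes, and turned to −0.08 under TMM and −0.10 under DESeq2 scaling, where the medians over all genes were −0.05 and −0.07.

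The edgeR test of the libraries without Dox against the library with Dox took 48 and 96 hours as 1 state, so its spread was the difference between those time points. It called 0 of 41 genes in either direction, against 0.603% higher and 0.411% lower of 15103 genes. At an unadjusted p under 0.05 there were 0 of the 41, against 10.8% of all genes, the lowest adjusted p was 0.583 by edgeR, and DESeq2 called 0 of the 41. The genes that differed most between the time points were Rad50 and Atr. Set against each other directly, in a comparison added after the values were seen, 96 hours over 48 hours gave 2 of 41 genes higher and 0 lower by 1.5-fold, and 2 higher and 1 lower (H2afx) under TMM and DESeq2 scaling. The median log2 ratio of the 41 was 0.11 with library totals, −0.01 under TMM and −0.03 under DESeq2 scaling. Over 11722 genes 12.2% were higher and 2.33% lower, and 5.02% passed 2-fold in either direction. Rad50 was at 16.4 RPKM at 48 hours and 33.4 RPKM at 96 hours, 2.04-fold higher (1.88 to 2.22). With library totals this just passed 2-fold, at a log2 ratio of 1.01. The TMM and DESeq2 factors were 0.959 and 0.958 at 96 hours and 0.883 and 0.866 at 48 hours. Under either, the ratio of Rad50 falls short of 2-fold. Atr was at 11.0 RPKM at 48 hours and 18.9 RPKM at 96 hours, 1.72-fold higher (1.58 to 1.87). H2afx went the other way, at 168 and 120 RPKM, 1.40-fold lower (1.31 to 1.49). With PD0325901 the 96 hour level of Rad50 was 32.0 RPKM and that of Atr 15.5 RPKM, so both 96 hour libraries lay above the 48 hour library for both genes.

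**Figure D3:**
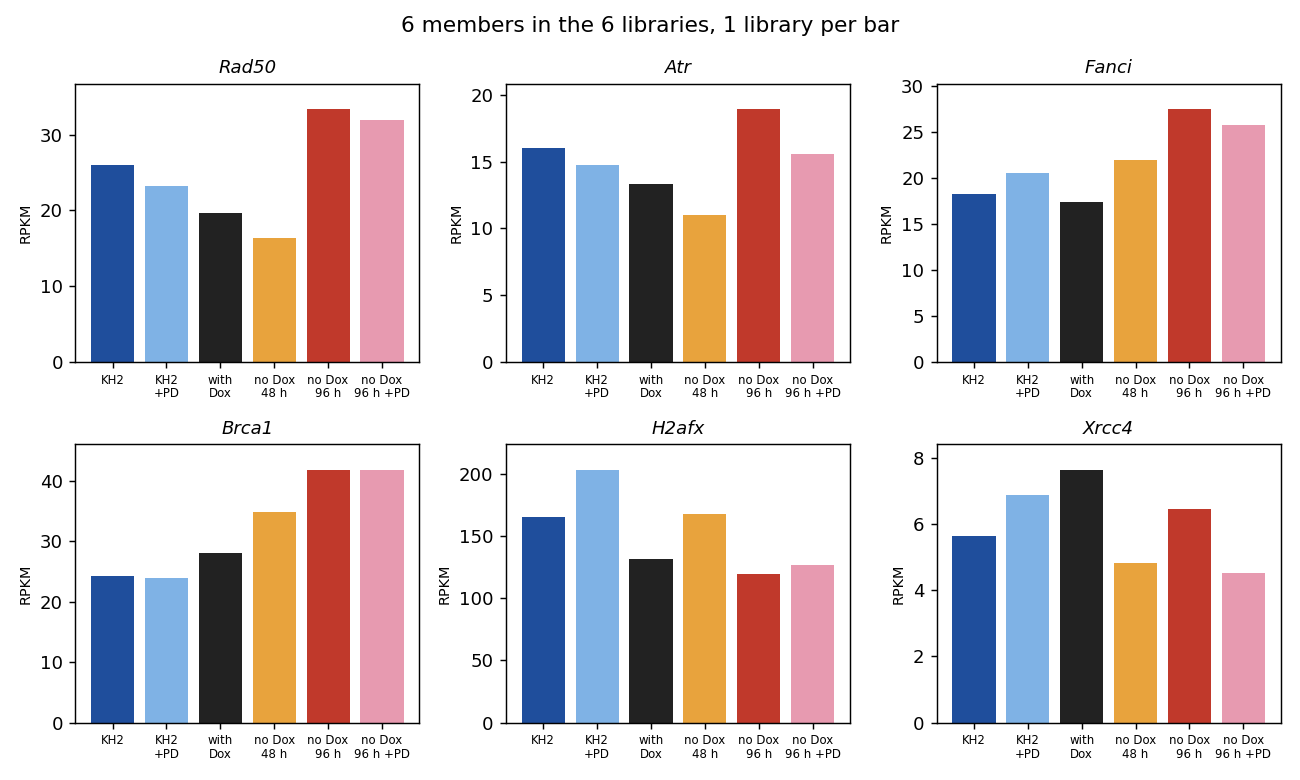
RPKM of Rad50, Atr, Fanci, Brca1, H2afx and Xrcc4 in each of the 6 libraries, 1 bar per library with no error bar because each group is 1 library. Rad50 stands at 19.7 RPKM with Dox, 16.4 at 48 hours and 33.4 at 96 hours, while Brca1 stands at 28.1, 34.8 and 41.8 RPKM.

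Of the 86 other repair genes 2 were higher and 3 lower at 48 hours and 4 were higher and 0 lower at 96 hours, by 1.5-fold. Fancg, a subunit of the Fanconi core complex, was at 3.59 RPKM with Dox, 7.15 at 48 hours and 9.63 at 96 hours. Fancm, the translocase of that complex, was higher at 48 hours (8.97 to 14.6 RPKM), and the polymerase gene Poli (22.0 to 13.9 RPKM) and the mismatch gene Msh3 (16.6 to 10.8 RPKM) were lower. At 96 hours the glycosylase gene Neil3 (1.73 to 4.29 RPKM), the end-processing nuclease gene Dclre1c (4.95 to 9.97 RPKM) and the alkyl transferase gene Mgmt (6.57 to 11.5 RPKM) were higher. In the direct comparison of 96 with 48 hours, 3 of the 86 were higher and 1, Rad9a, was lower (20.4 to 13.4 RPKM). The test over both time points called 0 of the 86 other repair genes, 0 of the 30 replication genes and 0 of the 25 G2 and mitosis genes by edgeR, with 4, 0 and 1 of them at an unadjusted p under 0.05 and the replication genes at a median log2 fold change of 0.03.

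The larger differences of the repair genes lay between KH2 cells and the engineered line. With Dox, the engineered line had 5 of 41 genes higher and 1 lower than untreated KH2 cells by 1.5-fold, against 8.61% higher and 38.7% lower of 12421 genes. At 2-fold 1 of the 41 passed, against 24.2% of all genes. Xrcc5 was at 72.2 RPKM in KH2 and 147 RPKM in the line with Dox, 2.04-fold higher (1.92 to 2.16). Nbn was 1.88-fold higher (1.62 to 2.19), Lig1 1.79-fold higher (1.70 to 1.88), Brca2 1.77-fold higher (1.65 to 1.91) and the recombination helicase Blm 1.53-fold higher (1.44 to 1.64). Rad51c, a recombination gene, was at 12.7 and 7.20 RPKM, 1.76-fold lower (1.47 to 2.11). These ratios were scaled to library totals, on which the median log2 ratio over all genes was −0.37 and that of the 41 genes 0.10. Under TMM scaling the medians were 0.46 for the 41 genes and 0.005 for all genes, and 16 of the 41 were higher and 0 lower, with Rad51c at a log2 ratio of −0.40. The counts between KH2 and the engineered line thus differ with the scaling.

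In a test of cell state, most repair genes were higher in Erk KO cells without Dox for 96 hours than in KH2 cells. The test was the coefficient of cell state in the 4-library edgeR fit, with PD0325901 as a block and TMM scaling. It called 28 of 41 genes higher and 1 lower at an adjusted p of 0.05, against 27.3% higher and 29.2% lower of 14782 genes. Among the 9255 genes with at least 52 reads in each library, 36.9% were higher and 24.2% lower. The median log2 fold change of the 41 genes was 0.44, against −0.07 over all genes and 0.10 over those 9255. Scaled to library totals the same fit called 18 higher and 7 lower, with medians of 0.16 for the 41 genes and −0.35 for all genes. The gap between the 41 genes and all genes was 0.51 under both scalings. A change of scaling moves every gene in this fit by nearly the same amount, so the equal gap is no check on the result. Cell line, loss of Erk and history of Dox cannot be told apart in this coefficient, and its error comes only from how alike the PD0325901 response was in the 2 states, since each group was 1 library and the labels do not say that libraries came from separate cultures.

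The log2 fold changes given by role carry TMM scaling, while the RPKM beside them is scaled to library totals, so the 2 do not match. With library totals the same fit gave 0.51 for Chek1, 0.80 for Brca1, 0.62 for Lig4 and −0.57 for H2afx. All 9 checkpoint genes were called in the test with TMM scaling, 8 higher and 1 lower. Chek1, the kinase under ATR, was at 24.0 and 20.2 RPKM in KH2 cells without and with PD0325901 and at 32.6 and 30.3 RPKM in Erk KO cells, a log2 difference of 0.79 (SE 0.10, adjusted p = 1.2e-05 by edgeR). Trp53bp1, which directs breaks toward end joining, was at 11.1 and 11.2 RPKM in KH2 cells and 15.4 and 15.9 RPKM in Erk KO cells (log2 fold change 0.77). Clspn, which holds CHK1 to ATR at forks, was at 14.6 and 11.6 RPKM and at 18.1 and 17.9 RPKM (0.75), and Atm at 7.15 and 5.75 RPKM and at 9.03 and 7.83 RPKM (0.67). For each of these 4 genes both Erk KO libraries lay above both KH2 libraries. Atr, its activator Topbp1, Chek2 and Mdc1, which binds phosphorylated H2AX, had log2 fold changes between 0.34 and 0.44, and none of these 4 calls held when the same fit was scaled to library totals. H2afx was the 1 gene called lower, at 165 and 203 RPKM in KH2 cells and 120 and 127 RPKM in Erk KO cells, a log2 difference of −0.30 (SE 0.10, adjusted p = 0.02 by edgeR). It was not called by DESeq2 (adjusted p = 0.182). H2afx transcripts are known with and without a polyA tail, and the libraries were polyA selected; the part of this in its level was not tested.

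In recombination and crosslink repair 11 of 18 genes were called higher and 0 lower. Blm was at 34.6 and 29.7 RPKM in KH2 cells and at 62.3 and 62.5 RPKM in Erk KO cells, a log2 difference of 1.24 (SE 0.097, adjusted p = 1.03e-07 by edgeR). Brca1 was at 24.2 and 23.9 RPKM in KH2 cells and at 41.8 RPKM in both Erk KO libraries (1.07, SE 0.094, adjusted p = 2.99e-07 by edgeR). Brca2, which acts in strand exchange, was at 11.9 and 10.6 RPKM and at 19.7 and 16.9 RPKM (0.98, SE 0.097). Nbn and the resection factor gene Rbbp8 both had a log2 fold change of 0.92, Fanci 0.74 and Rad50 0.69. Bard1, the PCNA ubiquitin ligase gene Rad18, the resection exonuclease gene Exo1 and the nuclease gene Mre11a were called with log2 fold changes between 0.36 and 0.48, and these 4 calls were lost with library totals. The 7 genes not called were Palb2, Wrn, Rad51c, Rad52, Rad54l, Fancd2 and Fanca, a subunit of the Fanconi core complex. Of these, Rad51c, Rad54l, Fanca and Fancd2 were called lower with library totals, at log2 fold changes of −0.41, −0.32, −0.39 and −0.27, against −0.14, −0.04, −0.11 and 0.01 with TMM. Palb2, the bridge between BRCA1 and BRCA2, missed the threshold at a log2 difference of 0.33 (SE 0.14, adjusted p = 0.0508 by edgeR).

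Of the 5 end joining genes 3 were called higher and 0 lower. Xrcc5 had the largest log2 fold change of the 41 genes, at 72.2 and 60.6 RPKM in KH2 cells and 132 and 129 RPKM in Erk KO cells, 1.26 (SE 0.096, adjusted p = 8.22e-08 by edgeR). Lig4 followed at 0.89 (SE 0.14), from 7.14 and 5.09 RPKM to 9.62 and 8.97 RPKM, and Prkdc at 0.58 (SE 0.11). Xrcc6 and Xrcc4 were not called, at 0.22 and 0.08. Of the 2 mismatch genes, Msh6 was called higher, at 155 and 146 RPKM in KH2 cells and 242 and 224 RPKM in Erk KO cells (0.91, SE 0.086, adjusted p = 6.42e-07 by edgeR), and Pms2, a subunit of the MutL nuclease, was not (0.04). In excision and single-strand break repair 5 of 7 were called higher and 0 lower. Lig1 was at 84.0 and 78.5 RPKM in KH2 cells and 155 and 141 RPKM in Erk KO cells (1.14, SE 0.091, adjusted p = 1.26e-07 by edgeR). Parp1 (0.62), Xpa (0.55), Xrcc1 (0.52) and Lig3 (0.30) were also called, Xpa at an adjusted p of 0.0495. The calls of Xpa and Lig3 were lost by DESeq2 and by edgeR with library totals. Ercc1, a subunit of an incision nuclease, and Ercc2, the TFIIH helicase, were not called, at log2 fold changes of −0.33 and −0.32, and were called lower with library totals.

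**Figure D4:**
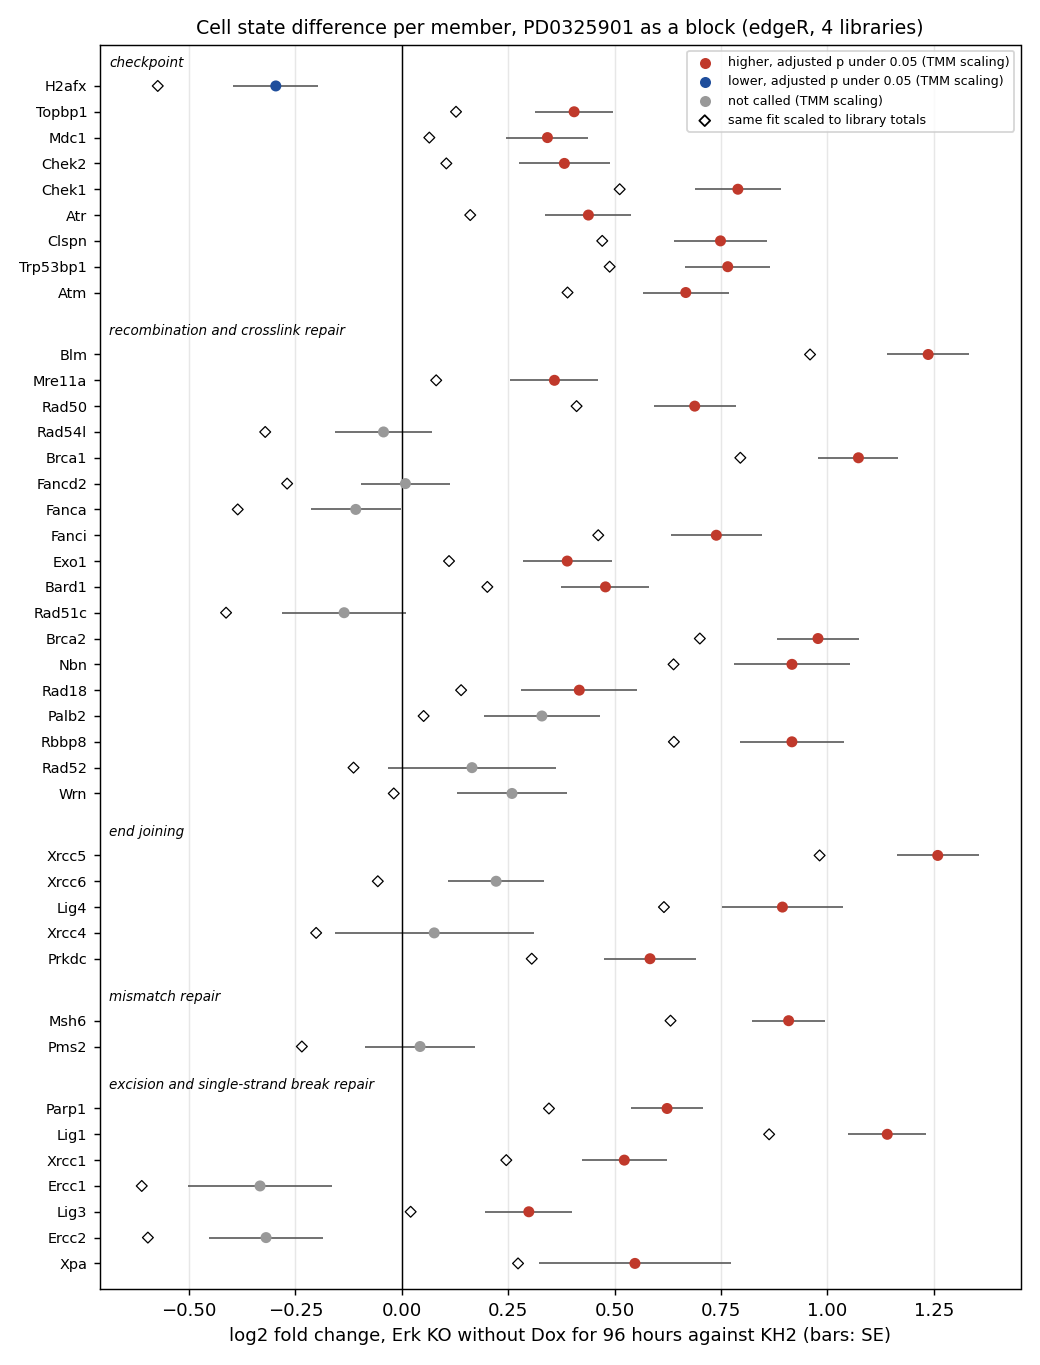
Log2 fold change of each of the 41 genes in Erk KO cells without Dox for 96 hours against KH2 cells, from the 4-library edgeR fit with TMM scaling (filled points with SE bars, red called higher, blue called lower, grey not called) and from the same fit scaled to library totals (open diamonds). Of the 41 points 28 are red and 1 is blue, and every diamond lies to the left of its point, which places 18 genes as called higher and 7 as called lower with library totals.

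DESeq2 called 21 of the 41 genes higher and 0 lower for cell state, and 21 of the 29 calls were shared. Leaving PD0325901 out of the model shared 20 of the 29. A fit of all 6 libraries in 3 states, added after the values were seen, also shared 20 of the 29 and lost the calls of Rad50 and Prkdc among others. Of the 86 other repair genes 35 were called higher and 13 lower in the main test, with a median log2 fold change of 0.18. DNA replication held 24 higher and 2 lower of 30 (median 0.49), and G2 and mitosis held 16 higher and 1 lower of 25 (median 0.55). The replication genes Mcm2 and Pcna were at 87.8 and 283 RPKM in untreated KH2 cells and at 163 and 330 RPKM in untreated Erk KO cells. Of the 25 p53 targets 4 were higher and 16 lower, and Trp53 was at 142 RPKM in both KH2 libraries, 197 RPKM with Dox, 206 RPKM at 48 hours and 143 and 140 RPKM at 96 hours without and with PD0325901. Of the 26 fibroblast markers 0 were higher and 16 lower, at a summed 733 and 3613 RPKM in the KH2 libraries and 302 and 1230 RPKM in the Erk KO libraries, and their part in the repair gene difference was not tested. Of the 12 stem cell markers 6 were higher and 3 lower.

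Between the line with Dox and untreated KH2 cells, 8.61% of 12421 genes were higher and 38.7% lower by 1.5-fold. Of the 86 other repair genes 5 were higher and 15 lower. The higher ones with the largest ratios were the base excision endonuclease gene Apex1 (26.6 RPKM in KH2 and 62.1 with Dox), the Fanconi deubiquitinase gene Usp1 (47.7 and 104 RPKM), the 53BP1 effector gene Rif1 (51.1 and 96.5 RPKM) and the ubiquitin ligase gene Rnf168 (11.6 and 19.6 RPKM). The lower ones with the largest ratios were Neil3 (6.39 and 1.73 RPKM), Neil2 (4.60 and 1.55 RPKM), Mgmt (19.1 and 6.57 RPKM) and the excision nuclease gene Ercc5 (22.0 and 8.59 RPKM). Log2 ratios ran from −1.63 to 1.21 over the 86 genes and from −0.77 to 1.02 over the 41. They were scaled to library totals, on which the median was −0.14 over the 86 genes and −0.37 over all genes.

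Ratios between partner genes within a library do not depend on scaling between libraries, and 8 such pairs, chosen with the values known, are given as descriptions. The Ku subunits work as a pair of 1 protein each, and the RPKM ratio of Xrcc5 over Xrcc6 was 1.26 in KH2 cells (95% counting interval 1.16 to 1.36) and 1.53 with PD0325901 (1.40 to 1.68). It was 2.77, 3.22, 2.78 and 2.91 in the 4 engineered libraries, in the order with Dox, 48 hours, 96 hours and 96 hours with PD0325901. The lowest of these had an interval of 2.58 to 2.97, so all 4 lay above both KH2 libraries beyond counting error. The ratio of Brca2 over Palb2 was 1.15 and 1.29 in the KH2 libraries and 2.10, 2.21, 2.08 and 1.75 in the engineered ones, also without overlap. Nbn over Mre11a was 0.418 and 0.396 in KH2 cells and between 0.590 and 0.729 in the engineered line. Brca1 over Bard1, the partners of 1 ubiquitin ligase, was 1.79 and 1.89 in KH2 cells, 2.08 with Dox, 2.26 at 48 hours and 2.80 and 2.77 at 96 hours.

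Other partner ratios moved with time without Dox or with the inhibitor. Rad50 over Mre11a was 0.933 and 1.04 in the KH2 libraries, 0.655 with Dox and 0.567 at 48 hours, and 1.19 and 1.28 in the 96 hour libraries. The 96 hour libraries lay above both KH2 libraries, and the libraries with Dox and at 48 hours lay below them. Fanci over Fancd2 was 0.833 in KH2 (0.756 to 0.917) and 1.23 with PD0325901 (1.11 to 1.36), and 1.20, 1.54, 1.65 and 1.70 in the engineered libraries. Lig3 over its scaffold Xrcc1 was 0.355 and 0.290 in KH2 cells, 0.404 with Dox, 0.433 at 48 hours, and 0.298 and 0.253 at 96 hours. Xrcc4 over Lig4 was 0.791 in KH2 and 1.35 with PD0325901, and between 0.498 and 0.757 in the engineered line, where the low reads of Xrcc4 widen the intervals (0.382 to 0.641 at 48 hours). Reads were not separated by strand, and in the mouse annotation 15 of the 41 genes share exon bases with another coding gene, 14 of them on the opposite strand. The overlap was at least 10% of exon bases for Lig3 (27.9%, with Rffl), Trp53bp1 (22.1%, with Tubgcp4), Ercc2 (16.4%, with Klc3) and Fanci (13.4%, with Polg), so the levels of these 4 genes are uncertain.

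**Figure D5:**
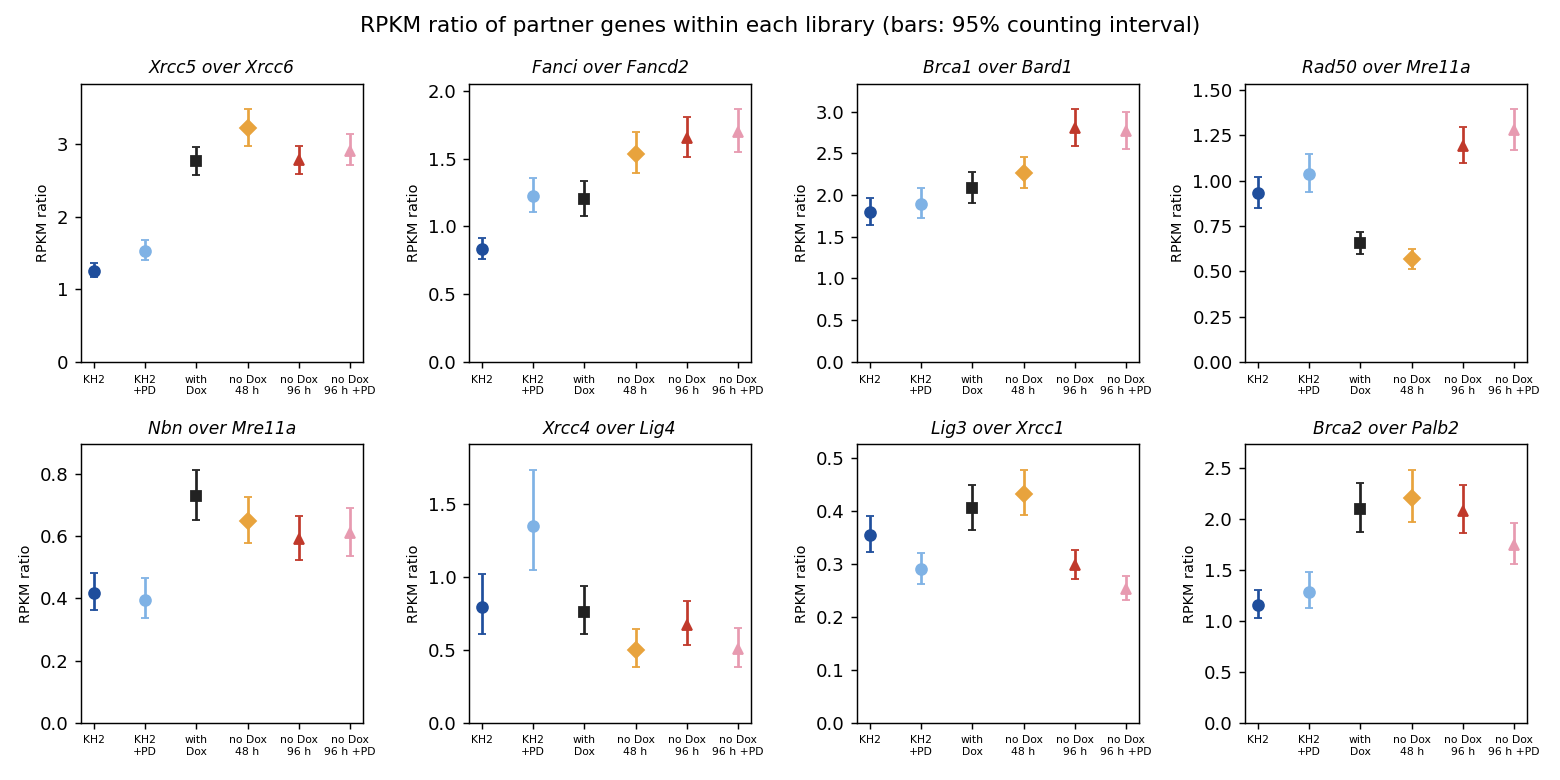
RPKM ratio of 8 pairs of partner genes in each of the 6 libraries, with bars for the 95% counting interval and axes starting at 0. Xrcc5 over Xrcc6 stands at 1.26 and 1.53 in the KH2 libraries and between 2.77 and 3.22 in the engineered ones, while Rad50 over Mre11a stands at 0.567 at 48 hours and 1.19 at 96 hours.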

How the data were processed

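PolyA RNA was sequenced as 50-base single-end reads, per the labels' protocols. Each deposited file gives, per the file headers, the authors' count of unique reads for a gene, its RPKM, and the percent of the gene that reads covered, which was not used for results. The submitters' processing notes name mm9. Aligner and gene models: not given in the sources used here. Absent genes were set to 0, and the 6 files were joined by gene ID, with symbols for 18805 of 18857 genes from RefSeq, since 4 files lacked them. Gene lengths differed between files for 41 genes.

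Library pairs were described by the rule in the report, with exact 95% Clopper-Pearson intervals of the read share scaled by totals. Tests used edgeR 4.0.16 quasi-likelihood fits in R 4.3.3 (TMM, at least 20 reads over the libraries, Benjamini-Hochberg over all genes, threshold 0.05). The 4-library fit and the 6-library fit with 48 and 96 hours as 1 state left 1 residual degree of freedom, with median prior degrees of freedom of 13.8 in the former. Alternatives with all 6 libraries in 3 states, or without a block, left 2. SE is the log2 fold change over the square root of F. DESeq2 1.42.0, other scalings, pseudocounts and filters were alternatives, and the tools were tested on simulated data. Promoters were from GRCm38.p6 and exon overlaps from GENCODE on GRCm38, neither mixed with mm9 values. Protein sequence features were planned and not used here. All 41 genes could be named. Of the other repair genes, up to 4 in each direction per pair were named, by largest log2 ratio among those past 1.5-fold with at least 100 reads. The members, lists and comparisons were chosen with earlier results of these data known. Some genes covered by these rules are not reported here.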

Additional observations from a re-analysis of the deposited data

Results flagged for a closer look

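After Dox withdrawal, 5 genes had log2 ratios to the library with Dox on opposite sides of 0 at 48 and at 96 hours, with a counting interval of the fold that excluded 1 at both times. Rad50 was at −0.26 at 48 hours and 0.75 at 96 hours, and Atr at −0.26 and 0.50. Prkdc was at −0.23 and 0.19, and Mdc1 at −0.10 and 0.21. H2afx went the other way, at 0.35 and −0.14. The difference between the time points was not tested, each time point is 1 library, and both ratios share the library with Dox. These ratios were scaled to library totals. TMM factors of 0.890 with Dox and 0.959 at 96 hours lower every 96 hour ratio, which matters most for the small rises of Prkdc and Mdc1. Whether the intervals still exclude 1 under TMM was not tested.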

How the results depend on the processing

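The count of genes past 1.5-fold at 48 hours without Dox was 1, and 2 with a pseudocount of 0.1 RPKM and 0 with 1 RPKM. At 96 hours it was 2, and 1 under TMM factors and 1 under DESeq2 size factors. For the line with Dox against KH2 it was 6, and 16 under TMM and 19 under DESeq2 size factors, where the median log2 ratio moved from 0.10 to 0.46 and 0.51. The PD0325901 effect common to both states called 0 of the 41 genes, and 1 with DESeq2 size factors or library totals in edgeR (Xrcc6 in both) and 1 without a filter (Parp1). For cell state the 28 higher and 1 lower became 18 and 7 with library totals, 21 and 0 by DESeq2, and 20 and 0 without PD0325901 as a block or with all 6 libraries. Under TMM and DESeq2 size factors the median log2 ratio changed sign at 96 hours without Dox (0.03 to −0.08 and −0.10) and for 96 against 48 hours (0.11 to −0.01 and −0.03), where 1 gene was then also lower. Each total count not named here, summed over both directions, stayed within 1.5 times, and no called gene of the tests reversed. Among single genes 243 values were counted as the same, 36 fell short of the threshold of a test, 5 passed it and 16 moved. For a test, the same means on the same side of the threshold. For a library pair it means a fold within the main counting interval, and moved means outside it. A pair value counted as the same can still drop below 1.5-fold, as Fanci did at 96 hours under TMM. The cause of these shifts was not tested. Treated and untreated libraries were paired by cell state as a block, and without that block the common PD0325901 test called 0 of the 41 genes and 0 of all genes, from 894 higher and 432 lower with it. Each group is 1 library and the labels carry no replicate numbers, so no replicate pairing and no leaving out of replicates was possible. Depth limits the genes with few reads, with Xpa at 52 reads in KH2.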
